A study of Mus musculus with 4 samples.

Results

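The genes described are 36 genes of the actin cytoskeleton and of integrin adhesions, whose RNA was sequenced from mouse astrocytes, glia that surround neurons and regulate ions and transmitters. They were taken by symbol from a table of 54532 genes: actins, tropomyosins and other filament-binding proteins, nonmuscle myosins, crosslinkers, turnover factors, membrane linkers, adhesion adaptors and integrins; the rule left out Flna, Tpm1 and Actn1. The cells carried either a small interfering RNA (siRNA) against Ptbp1, which encodes a splicing repressor, or an siRNA labelled NC, whose columns the deposited table names as the control. Each group had 2 libraries, and the labels give no strain, age, siRNA dose or time, nor whether the cells are primary, and do not say whether the 2 came from separate cultures, so p-values measure the spread between these libraries, which may be technical. All 36 symbols matched exactly 1 gene and all 36 passed the filter on low counts.

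Actin filaments are polymers that crosslinkers bundle, myosins pull on and tropomyosins, calponins and caldesmon cover. At the cell edge, integrins span the membrane and bind the matrix outside, while talin, vinculin and other adaptors join them to the filaments inside. In astrocytes this apparatus shapes the branched processes, and cultured astrocytes on a rigid surface are known for stress fibres and adhesions of this kind. Many genes of the contractile apparatus are known targets of serum response factor, which binds a DNA element called the CArG box.

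The gene counts totalled 14557844 to 16009248 per library, and the 36 genes took 2.30% to 2.47% of them. Ptbp1 itself (ENSMUSG00000006498; GRCm38 chromosome 10, 79854427 to 79864771, plus strand) stood at 300.4 and 295 CPM (counts relative to the scaled library size) in the control libraries against 203 and 196 under Ptbp1 siRNA, a fold of 0.669 (95% interval 0.610 to 0.733; edgeR quasi-likelihood test, Benjamini-Hochberg adjusted p = 0.00127). With limma on log2(FPKM + 1) and log2(FPKM + 0.1) the log2 fold change of Ptbp1 was similar, -0.57 and -0.58, but the call was lost (adjusted p = 0.735 and 0.570). Of 10 astrocyte markers 10 were detected in every library, and their summed level was 2160.2 to 2478 CPM. Markers of other cells were detected too: 6 fibroblast markers summed to 2015 to 2699 CPM, and 10 pericyte and smooth muscle markers outside the 36 genes summed to 304 to 394 CPM. Of these 10, 7 passed the filter on low counts, and the smooth muscle actin gene Actg2 alone stood at 75.8 to 117 CPM. The pericyte genes Kcnj8 and Abcc9 had 0 to 4 counts per library and the muscle filament gene Des 1 to 4. NC siRNA 2 stood apart in the summed level of 3 choroid plexus markers, which was 404 CPM there and 45.9 to 62.9 CPM in the other libraries. Of these 3, 2 passed the filter on low counts. In such bulk samples, more cells of a type and more RNA per cell cannot be told apart.

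The CArG box is a sequence feature of these genes that their choice did not use, and the stretches that hold it are shown for that reason. Promoter sequences were found in RefSeq (GRCm38.p6) for 31 of the 36 genes. The box was searched as CC, then 6 bases of A or T, then GG, a pattern equal to its own reverse complement, in the 250 bases before each annotated start. It occurred without mismatch in 5 of the 31 genes (16.1%) and in 439 of 27025 genes with a RefSeq promoter (1.62%). Among the other genes of the pathway listed further on it occurred in 2 of 22 family paralogs (9.09%) and 4 of 46 regulators (8.70%). With up to 1 mismatch it occurred in 14 of the 31 genes (45.2%), in 22.7% of the paralogs, in 17.4% of the regulators and in 21.1% of all. The 5 exact boxes and the pair of boxes with 1 mismatch in Acta2 are printed 5′ to 3′ on the gene's strand as 30 bases each, with the box in capitals.
Actg1, chr11:120348566-120348595, minus strand, 90 bases before the start: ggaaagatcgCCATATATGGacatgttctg
Cnn2, chr10:79988534-79988563, plus strand, 56 bases before the start: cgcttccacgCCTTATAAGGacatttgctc
Myl6, chr10:128493040-128493069, minus strand, 50 bases before the start: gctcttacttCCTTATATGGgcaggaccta
Myl9, chr2:156775293-156775322, plus strand, 161 bases before the start: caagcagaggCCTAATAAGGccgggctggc
Vcl, chr14:20929161-20929190, plus strand, 227 bases before the start: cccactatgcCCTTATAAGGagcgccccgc
Acta2, chr19:34255438-34255467, minus strand, 84 bases before the start: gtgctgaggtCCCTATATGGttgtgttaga
Acta2, chr19:34255388-34255417, minus strand, 34 bases before the start: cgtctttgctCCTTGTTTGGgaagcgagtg
Cnn2 and Vcl held the same 10 bases. The stretch of Myl6 lies before the RefSeq start but inside the span of that gene in the deposited table, 128490860 to 128494145. A match to these letters is a description and does not show that a factor binds there.

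The levels of the 36 genes spanned a wide range when compared per length, as the deposited FPKM (the authors' fragment values, divided by gene length and by library size) allow. Acta2 was the highest at a mean of 2005 FPKM over the 4 libraries, 17 genes lay at 100 FPKM or more, and Tagln and Ilk were the lowest at 4.14 and 1.45 FPKM. The next lowest was the integrin gene Itga6 at 7.09 FPKM. The 2 lowest values carry a limit of counting that is given further on. For Acta2 and Cfl1 the table's gene lengths, 1781 and 2354 bases, are shorter than the merged exons of GENCODE M21, 2196 and 2844 bases. Their FPKM would be raised if reads were counted over the longer exons, which was not tested.

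Of the actins, the smooth muscle form Acta2 led. In FPKM it stood at 1969 and 1969.9 with NC siRNA and at 2193 and 1887 with Ptbp1 siRNA. The cytoplasmic actins Actb and Actg1 stood at 775 to 811 and 533 to 565 FPKM. As shares of the summed FPKM of these 3 genes, Acta2 made up 59.4% ± 0.369 (SD, n = 2) with NC siRNA and 60.2% ± 1.70 with Ptbp1 siRNA, Actb 24.2% ± 0.0135 and 23.5% ± 1.07, and Actg1 16.4% ± 0.356 and 16.3% ± 0.628. The mean shares of the siRNA groups thus differed by less than the shares in the 2 single Ptbp1 siRNA libraries did. Of the 50-base stretches of Actg1 transcripts, 37.4% are found in further genes as well, such as the pseudogene Actg-ps1, and its level is uncertain to that extent.

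Among proteins that lie along the filament, Tpm4 was the leading tropomyosin of the 3 at 73.0% ± 0.121 of their FPKM with NC siRNA and 73.6% ± 0.877 with Ptbp1 siRNA. Tpm2 and Tpm3, at 57.0 and 54.7 FPKM over all libraries, lay close together, and their library values overlapped. For Tpm3, 23.2% of the 50-base stretches are shared with other transcripts, Tpm3-rs7 among them. Of the calponins, which hold back myosin on actin, Cnn3 took 61.3% ± 0.996 and 61.6% ± 2.59, Cnn2 29.5% ± 1.01 and 29.2% ± 1.502, and the smooth muscle form Cnn1 9.19% ± 0.0115 and 9.17% ± 1.08. Caldesmon (Cald1), another brake on actomyosin, stood at 126 to 133 FPKM, and the transgelin Tagln2 at 154 to 169.9 FPKM.

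Of the chains of the nonmuscle motor, a pair of light chain genes had the highest FPKM. Myl9 and Myl6, a regulatory and an essential light chain, stood at 357 to 393 and 199.9 to 226 FPKM, and the regulatory light chain Myl12a at 46.6 to 51.9 FPKM. Of the heavy chains, Myh9, at a mean of 129 FPKM, held 79.1% ± 0.477 of the FPKM of the pair with NC siRNA and 79.4% ± 0.723 with Ptbp1 siRNA, and Myh10, the form known for its role in brain, the rest. Myl12a overlaps its neighbour Myl12b over 13.8% of its exon bases, and 16.4% of its 50-base stretches are shared, so reads of these regulatory light chains may be hard to assign.

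At the membrane, the crosslinker Actn4 and the moesin and ezrin genes Msn and Ezr, which tie filaments to the membrane, stood between 111 and 154 FPKM, and the filamin Flnc between 65.3 and 76.6 FPKM. Of the turnover genes, Cfl1, which severs filaments, and Pfn1, which feeds actin monomers to growing ends, stood at 412 and 203 FPKM on average, and Vasp, which elongates filaments, at 38.3 FPKM. The adaptors other than Ilk stood at 14.6 to 56.3 FPKM on average, with zyxin (Zyx) at 56.3, talin (Tln1) at 40.8, vinculin (Vcl) at 38.5, parvin (Parva) at 32.2 and paxillin (Pxn) at 14.6 FPKM. Of the beta integrins, Itgb1, the partner of many alpha chains, held 76.9% ± 1.11 of the FPKM of the 3 with NC siRNA and 77.6% ± 1.11 with Ptbp1 siRNA. Itgb5 held 16.7% ± 1.08 and 16.2% ± 0.586, and Itgb8, known in astrocytes for releasing TGF-beta from its latent form, 6.40% ± 0.0319 and 6.26% ± 0.521. Of the alpha integrins, Itga5, the fibronectin receptor chain, held 71.7% ± 0.0349 and 71.6% ± 1.74, Itgav 20.6% ± 0.502 and 20.4% ± 1.41, and the laminin receptor chain Itga6 7.71% ± 0.537 and 7.96% ± 0.325.

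**Figure D1:**
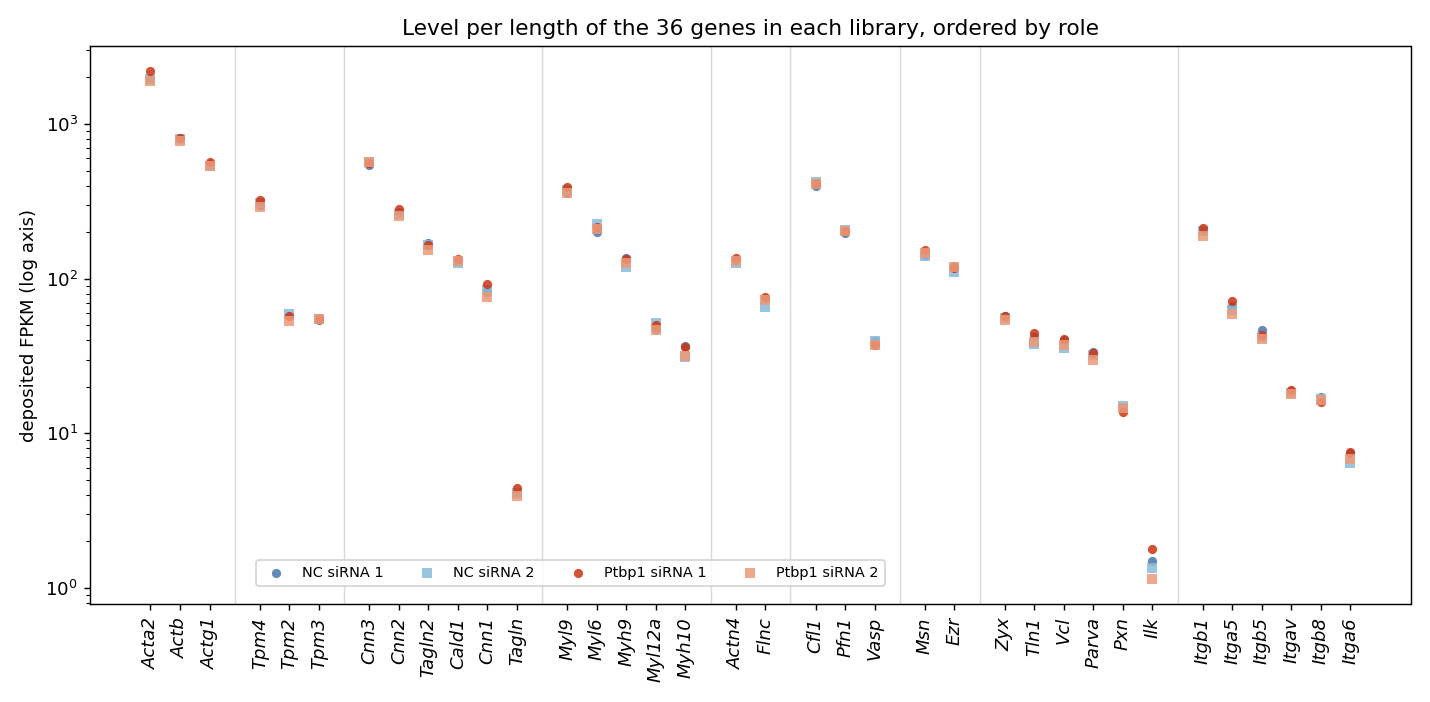
Deposited FPKM on a log axis of the 36 genes, ordered by role, with 1 point per library (dark circles: libraries numbered 1; light squares: libraries numbered 2; blue: NC siRNA; red: Ptbp1 siRNA). Acta2 is highest at a mean of 2005 FPKM, the 4 libraries of a gene lie close together, and Tagln and Ilk lie far below the rest of their groups.

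The siRNA comparison asked whether lowering Ptbp1 moved these genes. None of the 36 passed an adjusted p of 0.05 (edgeR quasi-likelihood test over all 16368 genes tested; each adjusted p = 1.00), where 0.0244% of all tested genes were called, 0.00611% as higher and 0.0183% as lower, and 0 had an unadjusted p under 0.05, where 3.98% of all tested genes did. By DESeq2 the counts of the 36 genes were 0 and 0, where 0.0136% of its genes were called and 0.512% had an unadjusted p under 0.05. The log2 fold changes (Ptbp1 siRNA over NC siRNA) ran from -0.091 for Vasp to 0.10 for Flnc. Their median was 0.0077, beside 0.00036 over all genes tested and 0.0079 over the 4255 tested genes with a mean of at least 64.3 CPM. Of the 36 genes 24 were positive, where 50.2% of all tested genes were. With no scaling factor 18 were positive, and without the library Ptbp1 siRNA 1 only 7. Without Ptbp1 siRNA 1 the median was -0.050, and without Ptbp1 siRNA 2 it was 0.054. In the authors' deposited table, none of the 36 genes had an adjusted p under 0.05, where 0.0148% of all genes with one did. Of the 6 fibroblast markers 6 had a negative log2 fold change, with a median of -0.15, 2 had an unadjusted p under 0.05 and 0 were called. The medians of the other marker lists were negative too. They were -2.0 for choroid plexus, -0.23 for microglia and macrophage, -0.11 for ependymal and -0.068 for astrocyte markers. For oligodendrocyte lineage, pericyte and smooth muscle, neuron and endothelial markers they were -0.063, -0.056, -0.032 and -0.016. Only 2 neuron markers were tested, and the fibroblast and oligodendrocyte lineage lists share the gene Pdgfra. Both choroid plexus markers tested had an unadjusted p under 0.05, and their list was high in NC siRNA 2 alone. The part of these cells in the values of the 36 genes was not tested.

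For the 34 genes other than Tagln and Ilk, the 95% intervals of the fold all lay between 0.849 and 1.19. For 22 of the 36 genes the log2 fold change was smaller in size than the difference between the 2 libraries of either group. The share of all genes for which this held was not computed. A difference of single libraries also tends to exceed a difference of means. With 2 libraries against 2, an exact permutation test of a single gene cannot go below p = 0.333, so only the fit across all genes was used.

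Actb (ENSMUSG00000029580; chromosome 5, 142903115 to 142906754, minus strand) read 2176 and 2154 CPM in the controls against 2185 and 2085 CPM after Ptbp1 siRNA. Acta2 (ENSMUSG00000035783; chromosome 19, 34241090 to 34255336, minus strand) read 3525 and 3525 CPM in the controls against 3926 and 3376 CPM after Ptbp1 siRNA. For both, 1 Ptbp1 siRNA library lay above both control libraries and the other below, so the groups overlapped. The log2 fold change was -0.020 for Actb (SE 0.059), 0.051 for Acta2 (SE 0.069) and 0.014 for Actg1 (SE 0.061).

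None of the filament-binding and motor genes passed the test. Tpm2, Tpm3 and Tpm4 had log2 fold changes of -0.069, 0.0019 and 0.0098, and Cald1, Cnn1, Cnn2 and Cnn3 had 0.038, 0.017, 0.0052 and 0.025. Tagln2 read 355 and 347 CPM in the controls against 345 and 323 CPM after Ptbp1 siRNA (log2 fold change -0.073, SE 0.063). Its groups did not overlap, and Ptbp1 siRNA 1 lay just below the lower control. The myosin genes Myh9, Myh10, Myl6, Myl9 and Myl12a had log2 fold changes of 0.031, 0.0041, 0.0056, 0.038 and -0.029, and their groups overlapped.

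Flnc and Msn had the largest positive values. Flnc (ENSMUSG00000068699; chromosome 6, 29433256 to 29461883, plus strand), a filamin known from muscle, read 696 and 617 CPM in the controls against 724 and 687 CPM after Ptbp1 siRNA. Its log2 fold change was 0.10 (SE 0.068, 95% interval -0.041 to 0.25). The groups overlapped, since NC siRNA 1 lay above Ptbp1 siRNA 2. Msn (ENSMUSG00000031207; chromosome X, 96096042 to 96168552, plus strand) read 906 and 895 CPM in the controls against 977 and 933 CPM. Its log2 fold change was 0.085 (SE 0.060), and its groups did not overlap. Ezr and Actn4 had log2 fold changes of 0.031 and 0.045.

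Vasp and Pxn had the largest negative values. Vasp (ENSMUSG00000030403; chromosome 7, 19256929 to 19271817, minus strand) read 105 and 103 CPM in the controls against 97.9 and 97.4 CPM after Ptbp1 siRNA, which gave a log2 fold change of -0.091 (SE 0.068). Pxn (ENSMUSG00000029528; chromosome 5, 115506676 to 115555987, plus strand) read 123 and 125 CPM in the controls against 114 and 119.6 CPM, which gave -0.086 (SE 0.068). Neither pair of groups overlapped, yet neither gene passed the test. The other adaptors Vcl, Tln1, Zyx and Parva had log2 fold changes of 0.040, 0.074, -0.032 and -0.057, and Cfl1 and Pfn1 had 0.00092 and 0.0057.

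Of the 6 integrin genes, 4 had a negative log2 fold change. It was -0.080 for Itgb5 (SE 0.072) and -0.070 for Itgb8 (SE 0.064), and Itgb1, Itgav, Itga5 and Itga6 had -0.021, -0.0060, 0.012 and 0.052. Itgb8 read 192 and 186 CPM in the controls against 179 and 182 CPM after Ptbp1 siRNA, without overlap. In all, the groups did not overlap for 6 of the 36 genes, Msn higher and Tpm2, Tagln2, Vasp, Pxn and Itgb8 lower, where 31.5% of all tested genes had groups that did not overlap, 15.6% higher and 15.9% lower.

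**Figure D2:**
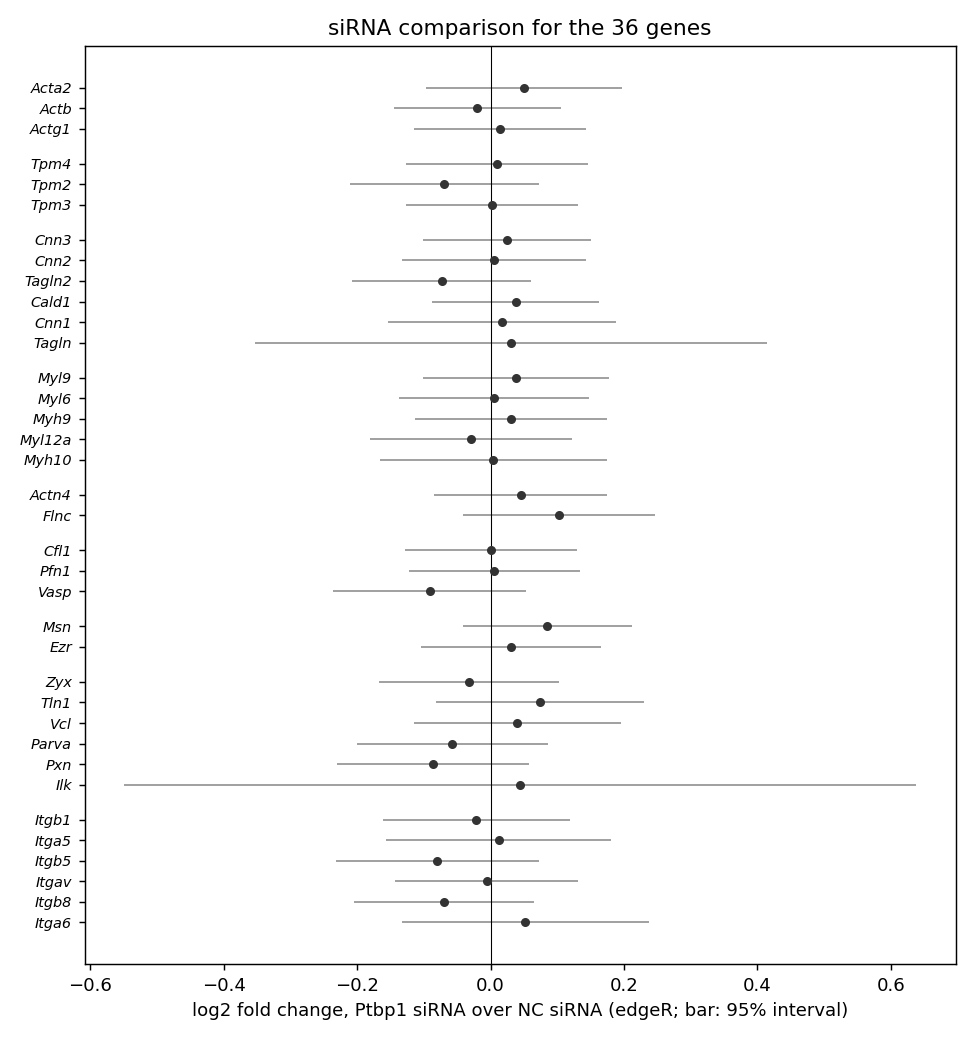
Log2 fold change of Ptbp1 siRNA over NC siRNA for the 36 genes, in order of role, from the edgeR fit over 16368 genes (points) with the 95% interval (bars). Every interval spans 0, and those of Tagln and Ilk are the widest.

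For the 36 genes, as for other genes at their level, the median replicate difference was larger than the median log2 fold change. A replicate difference compares single libraries and a log2 fold change compares means of 2. The log2 fold change therefore tends to be the smaller even without an effect of the siRNA. The median size of the difference between the 2 Ptbp1 siRNA libraries was 0.093 log2 units and that between the NC siRNA libraries 0.057, beside 0.032 for the log2 fold change. Over the 4255 tested genes with a mean of at least 64.3 CPM, the lowest mean of the 34 genes other than Tagln and Ilk, these medians were 0.060, 0.077 and 0.042. The level was set after the values were seen.

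The Ptbp1 siRNA pair split in 1 direction. Of the 36 genes, 31 were lower in Ptbp1 siRNA 2 than in Ptbp1 siRNA 1, where 50.6% of all tested genes and 47.9% of the 4255 genes were. The split was not particular to the 36 genes. Their median difference (Ptbp1 siRNA 2 minus 1) was -0.093 log2 units, beside 0.0039 over the 4255 genes. For the family paralogs and the regulators listed further on it was -0.18 and -0.051. The highest of the 4 libraries was Ptbp1 siRNA 1 for 19 of the 36, where that held for 23.4% of all tested genes, and the lowest was Ptbp1 siRNA 2 for 18, where that held for 25.5%. For 11 genes both held at once, where the share over all tested genes was 7.8%: Actb, Acta2, Tpm4, Cnn1, Cnn2, Tagln, Myl9, Ilk, Itga5, Itgav and Itgb1.

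Cnn1 (ENSMUSG00000001349; chromosome 9, 22099216 to 22109630, plus strand) shows the pattern, with 226 and 232 CPM in the controls against 255 and 208 CPM after Ptbp1 siRNA. Itga5 read 329 and 311 CPM against 354 and 292 CPM, and its partner Itgb1 839 and 838 CPM against 876 and 776 CPM. In each case the control libraries lay between the 2 Ptbp1 siRNA libraries. Most summed marker levels were lower in Ptbp1 siRNA 2 as well: the pericyte and smooth muscle markers summed to 392 CPM in Ptbp1 siRNA 1 and 304 CPM in Ptbp1 siRNA 2, the 6 fibroblast markers to 2407 and 2015 CPM, and the 10 astrocyte markers to 2435 and 2160.2 CPM. In the same order, endothelial markers summed to 90.8 and 75.2 CPM, and microglia and macrophage markers to 76.5 and 67.4 CPM. Neuron markers summed to 177 and 161 CPM, and oligodendrocyte lineage markers to 279 and 264 CPM. The ependymal markers, at 312 and 323 CPM, and the choroid plexus markers, at 45.9 and 62.9 CPM, were higher in Ptbp1 siRNA 2. Such falls were not particular to the Ptbp1 siRNA pair. In NC siRNA 1 and 2 the pericyte and smooth muscle markers summed to 394 and 335 CPM. Fibroblast markers summed to 2699 and 2444 CPM there, and astrocyte markers to 2478 and 2351 CPM. Endothelial, microglia and macrophage, and neuron sums were lower in NC siRNA 2 too. Oligodendrocyte lineage, ependymal and choroid plexus sums were higher in NC siRNA 2. The smooth muscle actin Actg2, itself 1 of the pericyte and smooth muscle markers in that sum, was at 117 CPM in Ptbp1 siRNA 1 and 75.8 CPM in Ptbp1 siRNA 2. Their part in the split was not tested.

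**Figure D3:**
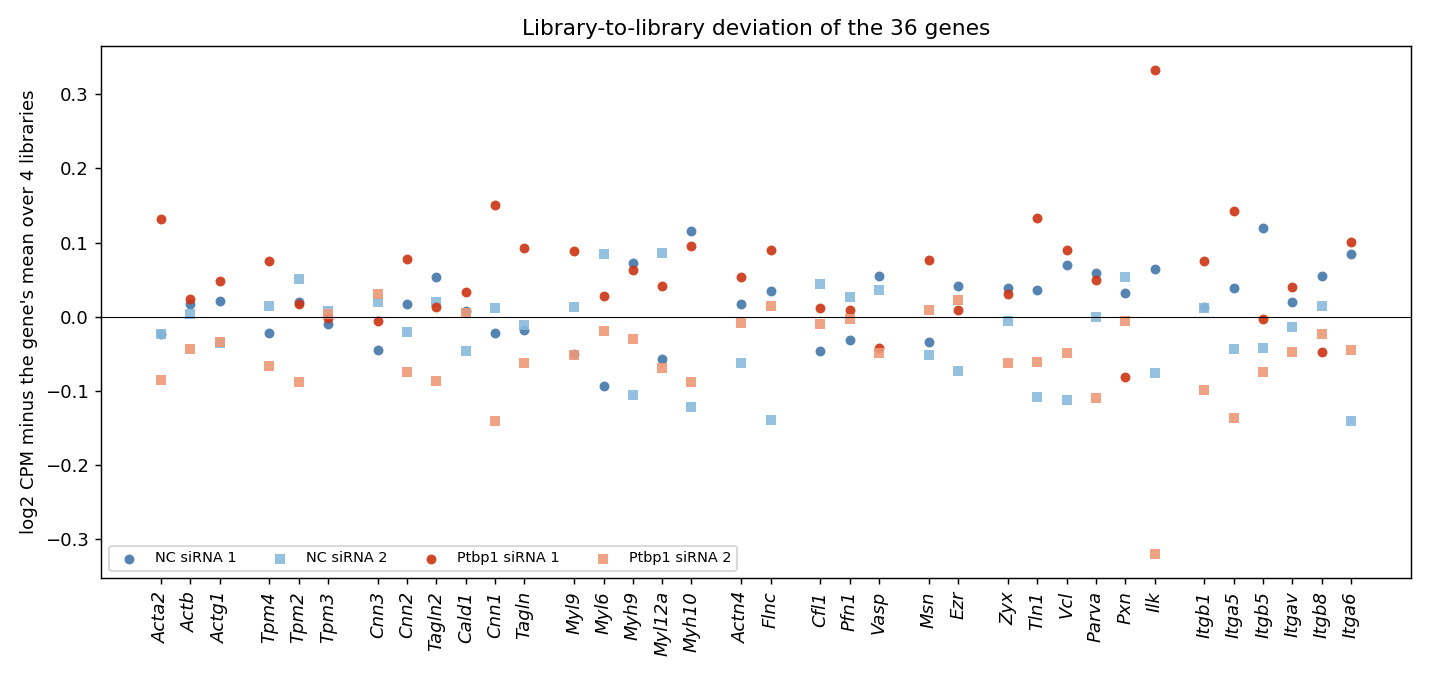
Log2 CPM of each library minus the gene's mean over the 4 libraries, for the 36 genes in order of role (dark circles: libraries numbered 1; light squares: libraries numbered 2; blue: NC siRNA; red: Ptbp1 siRNA). Ptbp1 siRNA 1 is the highest library for 19 genes and Ptbp1 siRNA 2 the lowest for 18, with the control libraries often between them.

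The NC siRNA pair split by gene length instead. Of the 36 genes 24 were lower in NC siRNA 2, where 50.9% of all tested genes were. Of the 11 genes of 8000 bases or more, 10 were lower in NC siRNA 2 than in NC siRNA 1, with a median difference of -0.14 log2 units, and the 8 genes under 2500 bases had a median of 0.021. Over the 4255 genes, the medians of the same length classes were -0.080 and 0.098. The Spearman correlation of this difference with length was -0.58 over the 36 genes and -0.53 over the 4255 genes. These are descriptions of 1 pair of libraries, which all points share.

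The heavy chain gene Myh10, 10458 bases long, stood at 383 and 325 CPM in NC siRNA 1 and 2, the lower of them in NC siRNA 2. Length did not order all genes: Myl6, 3187 bases long, stood at 640.2 and 724 CPM, while 8 of the 13 genes of 2500 to 5000 bases were lower in NC siRNA 2. Myh9, Vcl, Flnc, Tln1 and Itga6, all of 8000 bases or more, were likewise lower in NC siRNA 2, by 0.14 to 0.23 log2 units. The remaining genes of that length moved less. The differences (NC siRNA 2 minus 1) were -0.058 for Parva, -0.055 for Cald1, -0.041 for Itgb8, -0.034 for Itgav and 0.021 for Pxn. In the Ptbp1 siRNA pair the correlation with length was 0.13 over the 36 genes and -0.13 over the 4255, and that of the siRNA log2 fold change with length was 0.061 and 0.041. RNA quality, not given in the sources used here, was not tested.

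**Figure D4:**
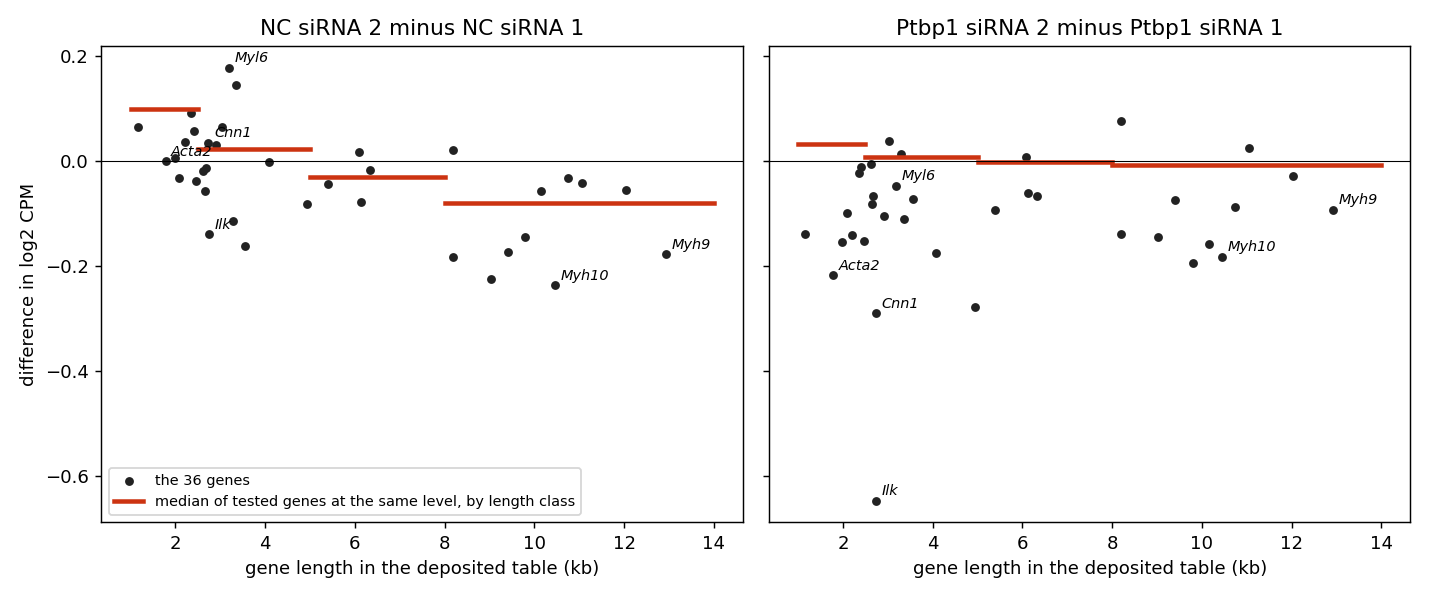
Difference in log2 CPM between the libraries of a group (left: NC siRNA 2 minus 1; right: Ptbp1 siRNA 2 minus 1) against gene length in kilobases, for the 36 genes (points), with the median of the 4255 tested genes at the same level in 4 length classes (red lines). On the left the long genes lie below 0 with the red lines, and on the right 31 of the 36 genes lie below 0 at all lengths while the red lines stay near 0.

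Tagln and Ilk are the genes whose counts are least certain. Tagln, the transgelin that marks contractile cells (ENSMUSG00000032085; chromosome 9, 45929619 to 45936058, minus strand), had 131 and 123 counts with NC siRNA and 128 and 118 counts with Ptbp1 siRNA. Ilk, the integrin-linked pseudokinase that anchors parvin and paxillin at adhesions (ENSMUSG00000030890; chromosome 7, 105736592 to 105742925, plus strand), had 66, 56, 72 and 47 counts in the same order. In the GENCODE M21 annotation, also on GRCm38, 67.9% of the exon bases of Tagln lie under exons of opposite-strand genes, mainly the antisense gene Gm48529 and in part Pcsk7. For Ilk the share was 89.7%, mainly under Taf10 and in part under Rrp8.

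The other 34 genes had at most 25.5%, the value of Vcl, which faces Ap3m1. Gm48529 had 116 to 118 counts per library, close to those of Tagln, and Taf10 and Rrp8 had 1089 to 1189 and 876 to 1048. The low levels of Tagln and Ilk cannot be read as low expression, with the strand setting of the counting and its treatment of overlapping exons not given in the sources used here. Parva and Pxn, which bind beside Ilk, stood at 304 to 342 and 114 to 125 CPM, and Acta2 and Cnn1, which share the contractile role of Tagln, at the high levels above. Other muscle genes varied: Acta1 and Myh11 were low, at 1.61 to 2.28 and 0.0992 to 0.376 FPKM, while the smooth muscle actin Actg2 stood at 48.5 to 74.6 FPKM. Levels of such genes do not show those of Ilk or Tagln, and a loss of reads in counting was not tested. The fold of Ilk had an interval of 0.683 to 1.56 and that of Tagln one of 0.783 to 1.33.

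No other gene of the pathway on the lists passed the test. Of 30 family paralogs 28 passed the count filter and none was called (median log2 fold change -0.066, 9 positive and 19 negative, 0 with an unadjusted p under 0.05). The paralogs with the smallest unadjusted p were Itga8, an integrin chain of contractile cells, at 8.36 and 8.74 CPM in the controls against 7.16 and 5.91 CPM (a log2 change of -0.39, SE 0.19), and the smooth muscle myosin Myh11, at 2.87 and 1.73 CPM against 0.758 and 1.81 CPM (log2 fold change -0.84, SE 0.45). Per length, Myh11 stood at 0.0992 to 0.376 FPKM, while Acta2, often read as a marker of the same cells, stood at 1887 to 2193 FPKM. The smooth muscle forms Actg2 and Cnn1 stood at 48.5 to 74.6 and 75.8 to 92.7 FPKM.

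Of 55 regulators, among them nucleators, cappers, kinases and transcription factors of the serum response factor and Yap axis, 55 were tested and none was called (median -0.025, 18 positive and 37 negative, 0 with an unadjusted p under 0.05). Mylk, the kinase of the regulatory light chains, read 11.2 and 12.1 CPM in the controls against 10.6 and 7.11 CPM, with a change of -0.39 (log2, SE 0.19). The formin Diaph3 read 26.1 and 23.3 CPM against 23.1 and 19.1 CPM, a change of -0.23 (log2, SE 0.12). Fscn1, the bundling protein of cell protrusions with the highest mean CPM of the list, read 2006 and 2028 CPM against 2107 and 2089 CPM, a change of 0.057 (log2, SE 0.058). Both Ptbp1 siRNA libraries lay above both control libraries for Fscn1, and the difference did not pass the edgeR test (Benjamini-Hochberg adjusted p = 1.00). For Mylk and Diaph3 both lay below both control libraries. In all, 6 of the 55 regulators were higher without overlap and 9 lower, where 15.6% and 15.9% of all tested genes were.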

How the data were processed

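The 4 libraries (2 of astrocytes with NC siRNA, 2 with Ptbp1 siRNA) were made from total RNA with a SMARTER mRNA-Seq kit, per the labels' protocols. The authors deposited 1 table of unnormalized counts, whole numbers for each gene, and FPKM values that divide by gene length and a library size of 14594265 to 16110821. The authors' group means, deposited as a signal of scaled counts, stand beside the authors' log2 fold changes and p-values of Ptbp1 siRNA against NC siRNA, per the file headers. Their test, aligner, counter, strand setting and annotation release were not given in the sources used here. GRCm38 and mm10, which name 1 assembly, are the builds per the submitters' processing notes.

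For testing, the counts went into edgeR 4.0.16 (R 4.3.3; TMM, filterByExpr defaults, quasi-likelihood, group as the only term, all 4 libraries, Benjamini-Hochberg over 16368 genes, threshold 0.05, two-sided). Standard errors and 95% intervals come from the quasi-F statistic with 2 residual and 14.0 prior degrees of freedom. CPM use TMM-scaled library sizes. The biological coefficient of variation was 6.42%. The libraries of a pair differed by more than counting error (chi-square per degree of freedom 5.34 for NC siRNA and 4.70 for Ptbp1 siRNA). The edgeR step was tested on simulated data. Exon overlaps and shared 50-base stretches use GENCODE M21, whose merged exon length equals the table's gene length for 34 of the 36 genes. Alternatives were RLE or no scaling, DESeq2 1.42.0, limma 3.58.1 on log2(FPKM + 1) or log2(FPKM + 0.1), other filters, a replicate block and each library left out in turn. The genes and lists were chosen with earlier results of these data known. All 36 are named; of each further list, the called genes or else the 2 with the smallest p and the 1 with the highest mean, except for a gene that is not reported here. Other genes named were chosen after their values were seen.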

Additional observations from a re-analysis of the deposited data

How the results depend on the processing

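Of the 36 genes 0 were called in any of the 12 alternatives, and the smallest adjusted p of any of them was 0.399, without NC siRNA 1. The number with an unadjusted p under 0.05 was 0 to 3. No family paralog or regulator was called in these alternatives. Over all genes, 4 were called by edgeR and also with RLE scaling, with no scaling factor, by DESeq2 and at a mean of at least 1 CPM. The number was 0 with limma on log2(FPKM + 1) and on log2(FPKM + 0.1), where 835 and 927 genes had an unadjusted p under 0.05, then 50 with no filter on low counts, and 34 to 75 when 1 library was left out, where the lone library is taken to vary like the others. The cause of these changes was not tested. With the replicate number as a block 36 genes were called over all genes and 0 of the 36 described. The labels do not say that the numbers pair the libraries. The replicate differences of the 2 groups correlated at a Pearson r of 0.088 over all tested genes and 0.32 over the 4255 genes at the level of the 36.

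The median log2 fold change of the 36 ran from -0.050 to 0.054 when 1 library was left out, the lowest without Ptbp1 siRNA 1. No scaling or tool moved the median of all genes by more than 0.011. The number of positive genes among the 36 was 7 to 29 when 1 library was left out. Directions of single genes were not stable: 9 genes kept their sign in every alternative (Actn4, Cald1, Flnc, Itgb8, Msn, Pxn, Tagln2, Tpm2 and Vasp), and 27 changed it when 1 library was left out. Their log2 fold changes then ran, for Tpm3 -0.0088 to 0.010, Tpm4 -0.063 to 0.080, Cnn1 -0.14 to 0.16, Cnn3 -0.010 to 0.057, Myl6 -0.083 to 0.10, Cfl1 -0.046 to 0.047, Pfn1 -0.025 to 0.035, Itgav -0.051 to 0.038, Itgb5 -0.16 to 0.0023, Actg1 -0.028 to 0.055, Cnn2 -0.074 to 0.081, Myh9 -0.056 to 0.12, Myh10 -0.11 to 0.13, Myl12a -0.10 to 0.044, Ezr -0.025 to 0.087, Vcl -0.048 to 0.13, Ilk -0.32 to 0.34, Itga5 -0.13 to 0.15, Itga6 -0.056 to 0.17, Acta2 -0.063 to 0.16, Tagln -0.049 to 0.11, Myl9 -0.034 to 0.11, Tln1 -0.027 to 0.17, Actb -0.054 to 0.014, Zyx -0.080 to 0.015, Parva -0.14 to 0.021, and Itgb1 -0.11 to 0.064. With no scaling factor the sign also changed, from near 0, for Tpm3 (-0.00438), Cnn2 (-0.00095), Myh10 (-0.00212), Myl6 (-0.00051), Cfl1 (-0.00526) and Pfn1 (-0.00053). With no filter on low counts the sign also changed, from near 0, for Tpm3 (-0.00359), Cnn2 (-0.00023), Myh10 (-0.00143) and Cfl1 (-0.00447). 

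Depth limits Tagln and Ilk most: with 47 to 131 counts per library, their intervals of the fold were the widest of the 36.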
